A study of Mus musculus with 18 samples.

Results

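Intermittent and constant chronic hypoxia were compared in mouse kidney on 12 of the 18 arrays of the series, namely the 6 arrays labelled intermittent and the 6 labelled constant. CD1 mice, an outbred strain, entered the chambers at postnatal day 2. Intermittent hypoxia meant that oxygen was switched between 21% and 11% every 4 minutes, constant hypoxia that it was held at 11%, and normoxia that the mice stayed in normal air. Each regime lasted 1, 2 or 4 weeks and has 2 arrays, A and B, per duration. Every array of this spotted cDNA platform was hybridised with kidney RNA of a mouse labelled male in Cy5 and a mouse labelled female in Cy3, both kept under the same regime. An array value is therefore a log2 ratio between the kidneys of 2 mice of 1 regime, and no array measured a regime against another directly. Dyes were not swapped, each array is 1 sample, and no source used here says which channel is on top of the ratio, so signs are those of the deposited ratios. Higher or lower below refers to that ratio between the channels, never to a gene's expression level in a regime. Every direction turns if the channels are the other way round on all arrays. If their order differs between arrays, a group mean mixes opposite ratios, and which of these holds was not tested.

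Cells sense oxygen through prolyl hydroxylases, which mark the alpha subunits of the hypoxia-inducible factors (HIF) for destruction through the von Hippel-Lindau protein while oxygen is present. Sustained hypoxia lets HIF accumulate and switch on genes of glycolysis, iron handling and vessel growth, and in the kidney erythropoietin. Cycles of hypoxia and reoxygenation, as in sleep apnoea, are known in addition for bursts of reactive oxygen species and for activation of the sympathetic and renin-angiotensin systems.

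Intermittent arrays carried a value for 42.9% to 65.7% of the 16128 probes and had deposited medians between -0.03 and 0.03. Constant arrays carried one for 81.8% to 88.8% of probes and had medians between -1.17 and -0.15. The regimes therefore stood on different footings as deposited, and what led to this was not tested. Footing and regime cannot be told apart. The 5751 features (4109 named genes and 1642 single probes) with values on at least 15 of the 18 arrays and at least 1 in each group were fitted. Each array's median over these features was subtracted first. Ratios also drifted along the probe numbers. A running median over 50 probes on either side held 13.3% to 55.5% of the variance of intermittent arrays and 39.8% to 84.2% of that of constant arrays, and values with this running median subtracted are given beside centred ones where named. Replicate arrays A and B correlated across features at 0.41, 0.24 and 0.27 at 1, 2 and 4 weeks of intermittent hypoxia and at 0.24, 0.63 and 0.46 of constant hypoxia. After subtraction of the running median these became 0.28, -0.01 and 0.23 for intermittent and -0.01, 0.27 and 0.45 for constant hypoxia. The labels of 2 arrays contradict themselves. One source name on intermittent array A at 2 weeks is that of an animal kept for 1 week, and constant array A at 4 weeks is described in one field as treated for 2 weeks.

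Eif2s3y, a Y-linked translation initiation factor gene, is a check of the channel labels. Its centred log2 ratio was -2.16 and 0.18 at 1 week, -0.50 and -1.48 at 2 weeks and 0.10 and -1.63 at 4 weeks of intermittent hypoxia (arrays A and B). In constant hypoxia it was 0.06 and 0.44, 1.32 and -0.64, and 1.13 and 0.66 at the same durations. It was negative on 4 of 6 intermittent arrays and positive on 5 of 6 constant arrays, so neither regime gave the single sign that a fixed male-to-female ratio would give. The regime difference of this gene over all durations was -1.41 on the log2 scale and did not pass (adjusted p = 0.393, limma).

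Over all durations, 2 of 5751 features differed between the regimes at an adjusted p under 0.05, which is 0.0348% of those tested, and both had higher ratios in intermittent hypoxia. One is Arrb2, which encodes beta-arrestin 2, an adaptor that uncouples and internalises G-protein-coupled receptors such as adrenergic and angiotensin receptors. Arrb2 had centred log2 ratios of 0.10 and 0.30 at 1 week, 2.32 on array B at 2 weeks, and 0.26 and 0.47 at 4 weeks of intermittent hypoxia, with no value on array A at 2 weeks. In constant hypoxia Arrb2 had 0.08 and -0.42 at 1 week, -0.21 and 0.22 at 2 weeks, and -0.05 and -0.30 at 4 weeks. All 5 intermittent values lay above 0, and the lowest fell below the highest constant value, so the regimes overlapped. The Arrb2 difference, intermittent minus constant, was 1.08 ± 0.16 (SE; 5 and 6 arrays; adjusted p = 0.0467) and 0.83 with the running median subtracted (adjusted p = 0.0486). With a local median over neighbouring spots subtracted it was 0.70 and did not pass (limma, adjusted p = 0.118). By duration the centred difference was 0.37, 2.32 and 0.55, so array B at 2 weeks supplied the largest term.

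The other is a probe without a gene name. It read -0.50 and -0.17 at 1 week, 1.03 on array A at 2 weeks and 0.48 and 0.60 at 4 weeks of intermittent hypoxia, against -0.58 and -0.82, -1.14 and -1.09, and -2.27 and -1.02 in constant hypoxia. No intermittent value was as low as the highest constant one. Its difference was 1.57 ± 0.21 (SE; 5 and 6 arrays; adjusted p = 0.0467), and 1.05 with the running median subtracted (adjusted p = 0.00178). The count of 2 depended on single arrays. It became 0 without either 1-week array of either regime, without either 2-week constant array, without 2-week intermittent array A, or without either 4-week intermittent array. It was 1 without 2-week intermittent array B, 2 without 4-week constant array A, and 680 without 4-week constant array B, where array A of that group, the constant array with the widest ratios, stands alone. At an unadjusted p under 0.05, 466 features had a positive difference (8.10% of those tested) and 188 a negative one (3.27%), 11.4% together. Of all features 59.8% had a positive difference (median 0.06), and 49.9% did with the running median subtracted, when 3 features passed (0.0522%).

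**Figure D1:**
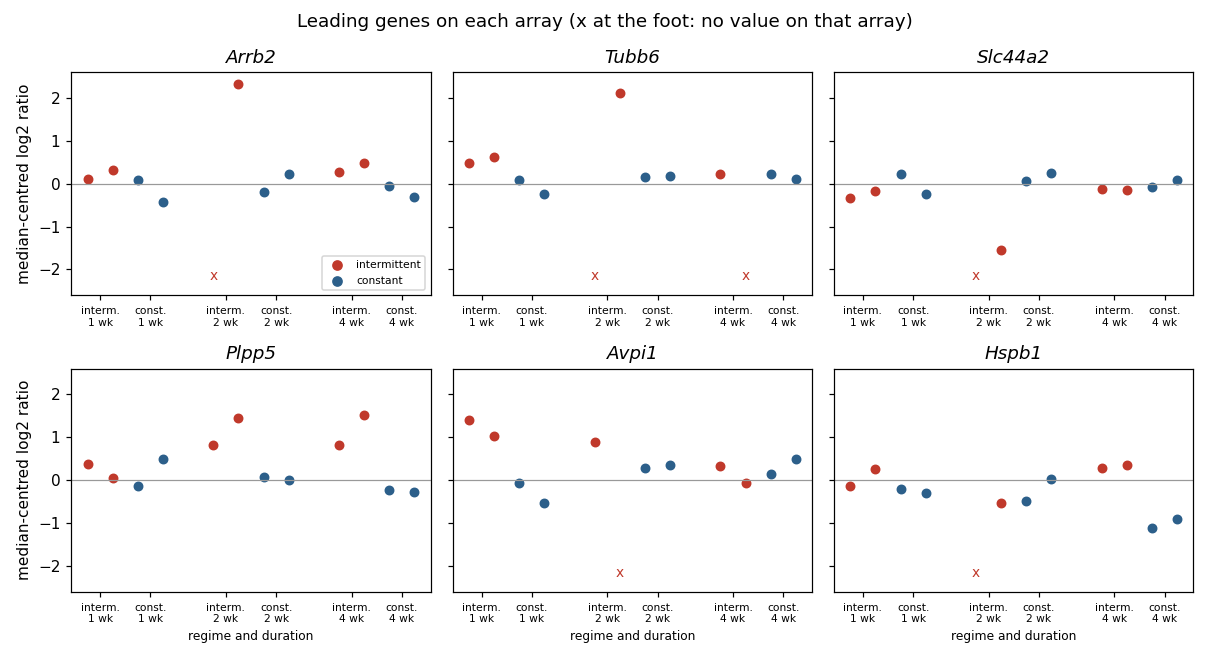
Median-centred log2 ratios (y) of 6 genes on the 12 hypoxia arrays (x), 1 point per array, intermittent red and constant blue; an x at the foot marks an array with no value. The 2-week separation of Arrb2, Tubb6 and Slc44a2 is a single intermittent array at 2.32, 2.11 and -1.55, while Plpp5 and Hspb1 separate on both arrays of each regime at 4 weeks.

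The other genes named on the positive side, which were required to have the same sign at each duration, did not pass. Tubb6, a beta-tubulin, had a difference of 0.88 ± 0.15 (adjusted p = 0.14). It passed with the running median subtracted (0.82, adjusted p = 0.0486) but not with the local median subtracted (0.645, limma adjusted p = 0.118). Plpp5, a lipid phosphate phosphatase, read 0.38 and 0.06, 0.81 and 1.45, and 0.82 and 1.52 in intermittent hypoxia, against -0.13 and 0.50, 0.07 and 0.01, and -0.24 and -0.28 in constant hypoxia at 1, 2 and 4 weeks. The 4 intermittent arrays at 2 and 4 weeks all lay above the 6 constant arrays, and its difference was 0.85 ± 0.18 (adjusted p = 0.329). Itpr2, an inositol trisphosphate receptor that releases calcium from the endoplasmic reticulum, had a difference of 0.53, and Ube2g1, a ubiquitin-conjugating enzyme, one of 0.61. Lin54, a DNA-binding subunit of the cell-cycle repressor complex DREAM, had 0.66, and Ubap2 had 0.57. Micos13, part of the complex that shapes mitochondrial cristae, had 0.79, and 0.26 with the running median subtracted. Dynlt1b, a dynein light chain, and Fbp2, a fructose bisphosphatase known from muscle, had 1.12 and 1.21, and for these 4-week constant array A was far below the other constant arrays at -3.64 and -3.76. After subtraction of the running median Dynlt1b had 0.45 and Fbp2 0.64, while Itpr2 had 0.40, Ube2g1 0.41, Lin54 0.43 and Ubap2 0.35. From Itpr2 to Fbp2 the adjusted p of the centred difference was 0.389 in each case.

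On the negative side no feature passed. Slc44a2, a choline transporter-like protein of the plasma membrane and mitochondria, read -0.33 and -0.18 at 1 week, -1.55 on array B at 2 weeks and -0.12 and -0.15 at 4 weeks of intermittent hypoxia, with no value on array A at 2 weeks. In constant hypoxia Slc44a2 read 0.22 and -0.23, 0.07 and 0.24, and -0.07 and 0.08, and the difference was -0.70 ± 0.14 (adjusted p = 0.329), and -0.27 with the running median subtracted. The others include Etf1, the factor that ends translation (-0.55), Dnajc2, a ribosome-bound chaperone (-0.71), Pdia6, a disulfide isomerase of the endoplasmic reticulum (-0.54), and Neurl4 (-0.51). Etf1 lay between -0.82 and -0.28 on the 6 intermittent arrays and between -0.32 and 0.49 on the 6 constant arrays, so the groups touched only at their edges. Irgq, of the immunity-related GTPase family, and Ifi27, an interferon-induced gene, had differences of -0.84 and -0.63, with 2-week intermittent arrays lowest at -1.70 (array A) and -1.67 (array B). Pacsin2, an endocytic membrane-bending protein, had -0.58, Cnnm1, of a family of magnesium transport regulators, -0.48, and Fundc2, a mitochondrial outer membrane protein, -0.47. From Etf1 to Fundc2 the adjusted p was again 0.389. After subtraction of the running median Dnajc2 kept -0.71 and Irgq had -0.68, while Etf1 had -0.35, Pdia6 -0.33, Neurl4 -0.29, Ifi27 -0.39, Pacsin2 -0.32, Cnnm1 -0.25 and Fundc2 -0.20.

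Of the 3397 features measured on all 12 hypoxia arrays, 10 (0.294%) had regimes that did not overlap, 6 with intermittent hypoxia above and 4 below. Rpa2, a subunit of the single-strand DNA-binding protein RPA, lay between 0.15 and 0.52 on intermittent and between -1.11 and 0.08 on constant arrays. Prdx4, a peroxiredoxin of the endoplasmic reticulum, lay between -0.32 and 0.02 on intermittent and between -1.82 and -0.32 on constant arrays. Rnf44 and Fbp2 were the other named genes above, with differences of 0.22 and 1.21. Below were Nfia, a transcription factor (-0.28 to -0.04 intermittent, -0.00 to 0.51 constant), Pnpt1, a mitochondrial RNA-processing enzyme (difference -0.39), and Eif4enif1, which carries the cap-binding factor eIF4E (-0.27). The gaps were small, from 0.002 to 0.099. With the running median subtracted 19 features did not overlap, 0.56% of 3390, and Rpa2 was the single named gene in both sets.

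At 1 week no feature passed, and 88 had an unadjusted p under 0.05 (1.53%). Avpi1, named for its induction by vasopressin, led the positive side. It read 1.39 and 1.03 on the intermittent arrays A and B, against -0.06 and -0.53 on the constant arrays. The 1-week difference was 1.50 ± 0.27 (adjusted p = 0.233), and with the running median subtracted 1.39 (adjusted p = 0.0451), when 3 features passed (0.0522%). The Avpi1 difference was 0.58 at 2 weeks and -0.19 at 4 weeks, and the change between 1 and 4 weeks, -1.69 ± 0.38, did not pass (adjusted p = 0.505). The next genes, 2410002F23Rik (1.38) and the kinase gene Bmp2k (0.89) on the positive side, had an adjusted p of 1, as had Ptgr2 (-0.71), Chmp5 (-0.94) and Wwtr1 (-0.77), which encode a prostaglandin reductase, an endosomal sorting protein and the Hippo pathway coactivator TAZ.

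At 2 weeks 2 features passed, 0.0348% of those tested, and both rest on 1 intermittent array. Arrb2 differed by 2.32 ± 0.31 and Tubb6 by 1.94 ± 0.27 (adjusted p = 0.0366 each). Tubb6 read 2.11 on intermittent array B, against 0.15 and 0.18 on the constant arrays, with array A again without a value. Array B at 2 weeks had the largest interquartile range of the 12, at 0.88. Of its fitted features 13.7% were beyond 1 in size, against 16.4% on constant array A at 4 weeks. On the running-median scale the Arrb2 difference was 1.29 (adjusted p = 0.152) and that of Tubb6 1.53 (adjusted p = 0.0319), among 5 passing features (0.0869%). Cdh1, the epithelial cadherin, read 1.74 on array B of intermittent hypoxia and -0.03 and 0.03 in constant hypoxia (difference 1.74, adjusted p = 0.0768). On the negative side Slc44a2 differed by -1.70 (adjusted p = 0.0592), Aar2, a spliceosome assembly factor, by -1.12 (adjusted p = 0.0793) and Brd7, a chromatin reader, by -0.87 (adjusted p = 0.154). Aar2 was measured on both intermittent arrays, at -0.88 and -0.78, against 0.34 and 0.25 in constant hypoxia, so for this gene array A and array B lay on the same side. Without intermittent array A, 388 features passed, without constant array A at 4 weeks 6, and without constant array B at 4 weeks 14. The count was 0 when array B of the 2-week intermittent group, intermittent array A at 4 weeks, or any 1-week or constant 2-week array was left out.

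At 4 weeks no centred feature passed (smallest adjusted p = 0.0654), while 1042 had an unadjusted p under 0.05 (18.1%), 725 with a positive (12.6%) and 317 with a negative difference (5.51%). With the running median subtracted 47 features passed, 0.817% of those tested, 23 with a higher (0.400%) and 24 with a lower ratio (0.417%) in intermittent hypoxia. Of these 38 carry a gene name, and those described here, other than Acot7, Hspb1, Selenop, Slco3a1 and Ube2o, were picked after their values were seen. Leaving out 4-week constant array B gave 894 passing centred features, and leaving out any other array gave 0 or 1.

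Among genes with a higher ratio in intermittent hypoxia was Hspb1, a small heat-shock protein that guards actin and unfolded proteins. It read 0.29 and 0.36 on the intermittent arrays, against -1.11 and -0.89 on the constant arrays and -0.67 and -1.01 on the normoxia arrays. The Hspb1 difference was 1.32 ± 0.24 (adjusted p = 0.0654), and with the running median subtracted 1.24 ± 0.19 (adjusted p = 0.0162). Acot7, a thioesterase of long-chain acyl-CoA, read -0.03 and 1.25 in intermittent and -5.60 and -2.22 in constant hypoxia, a difference of 4.52, and of 2.69 with the running median subtracted (adjusted p = 0.0162). Ifitm3, an interferon-induced membrane protein, had a centred difference of 2.90 (adjusted p = 0.0654) from 1 constant array at -3.21, and 0.82 with the running median subtracted (adjusted p = 0.335). The metal-binding Mt2 (2.47) and the glutathione transferases Mgst1 (2.40) and Gstm7 (1.01) were also in the 23, as were Clu, a secreted chaperone raised in injured tubules (1.04), and Rest, a transcriptional repressor (1.06), on the running-median scale. Rest read 0.82 and 0.92 in intermittent hypoxia, against -0.32 and -0.07 in constant hypoxia and -0.06 and -0.03 in normoxia, so both intermittent arrays stood apart from the other 4.

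Among genes with a lower ratio in intermittent hypoxia was Odc1, ornithine decarboxylase, which makes polyamines and depends on androgen in mouse kidney. Odc1 read -0.11 and -1.42 in intermittent hypoxia, 1.90 and 1.58 in constant hypoxia and -0.10 and 1.68 in normoxia (centred), a difference of -2.50 (adjusted p = 0.0946), and -2.37 with the running median subtracted (adjusted p = 0.0392). Selenop, the selenium carrier of plasma, read -0.61 and -1.70 in intermittent, 2.18 and 1.08 in constant hypoxia and 0.36 and 1.78 in normoxia. Slco3a1, an organic anion transporter, read -0.08 and -0.88, 1.86 and 1.66, and -0.36 and 1.48 in the same groups, and Ube2o, a ubiquitin ligase, -0.10 and -0.89, 1.42 and 0.90, and -0.26 and 0.78. In each of these genes intermittent array B was the lowest of the 4-week arrays and normoxia array B stood with the constant arrays. Their running-median differences were -2.42 for Selenop, -2.29 for Slco3a1 and -1.91 for Ube2o. The peroxisomal racemase Amacr (-1.92), malic enzyme Me1 (-1.39), the carboxylesterase Ces1f (-2.48), the immunophilin Fkbp5 (-1.27) and the cold-shock protein Ybx1 (-1.61) were further members of the 24.

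**Figure D2:**
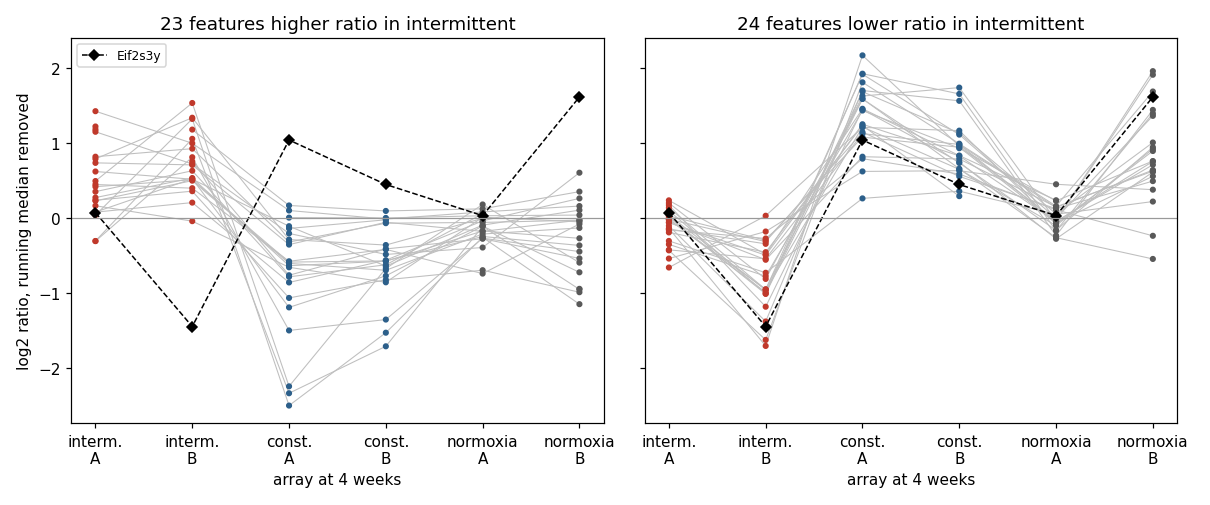
Log2 ratios with the running median subtracted (y) on the 6 arrays at 4 weeks (x) for the 23 features with a higher ratio (left) and 24 with a lower ratio (right) in intermittent hypoxia, 1 grey line per feature, with Eif2s3y dashed. Eif2s3y runs with the lower features: -1.44 on intermittent array B, 1.04 and 0.45 on the constant arrays and 1.61 on normoxia array B. It was added after values were seen and is not among the 24, as its 4-week difference of -1.43 did not pass (limma adjusted p = 0.438).

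Normoxia arrays did not enter this contrast, although they share in its estimate of the spread. Normoxia array B had the sign opposite to the regime difference, the constant side of 0, for 36 of the 44 passing features measured there (81.8%), against 3436 of 5522 features in all (62.2%). Eif2s3y read -1.63 on intermittent array B, 1.13 and 0.66 on the constant arrays, 1.64 on normoxia array B, and 0.10 and 0.06 on the intermittent and normoxia arrays A. On the running-median scale, across 4693 features, the 4-week regime difference correlated with normoxia array A minus normoxia array B at 0.33, against -0.11 at 1 week and -0.05 at 2 weeks (5113 and 3703 features). The centred values gave 0.11 at 4 weeks, -0.08 at 1 week and -0.36 at 2 weeks. These are correlations over features of single arrays that share a platform and a spatial drift. Intermittent array B and constant array A at 4 weeks correlated at -0.41 across features on that scale, against -0.02 when centred. With the sign of intermittent array B turned no feature passed at 4 weeks on the running-median scale, and none passed with it, or constant array A, left out. With both left out 1 feature passed. The part of the animals' sex, or of the channel each animal was labelled in, in the 4-week differences was not tested.

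The 250 bases before the start of Hspb1 and Odc1, the named genes with opposite 4-week differences, are shown as examples of the windows searched for the HIF site, and neither gene is on the HIF list. They were taken from RefSeq on GRCm38.p6, and capitals mark the core letters of the HIF site, ACGTG or GCGTG on either strand.
Hspb1 (chr5:135887669-135887918, plus strand, promoter): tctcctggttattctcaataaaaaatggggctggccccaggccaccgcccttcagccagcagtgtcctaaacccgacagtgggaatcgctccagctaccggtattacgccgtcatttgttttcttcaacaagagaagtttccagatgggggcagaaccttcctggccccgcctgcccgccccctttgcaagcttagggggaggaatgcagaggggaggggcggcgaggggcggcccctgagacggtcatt
Odc1 (chr12:17544623-17544872, plus strand, promoter): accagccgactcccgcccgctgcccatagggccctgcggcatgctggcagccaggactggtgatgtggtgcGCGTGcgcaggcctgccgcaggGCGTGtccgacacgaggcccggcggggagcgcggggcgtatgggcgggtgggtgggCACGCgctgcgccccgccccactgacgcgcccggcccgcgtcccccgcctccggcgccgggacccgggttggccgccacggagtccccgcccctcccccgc
The Odc1 window holds 3 matches and that of Hspb1 none. A gene was counted if any of its promoters held a match. This was so for 17 of the 27 passing 4-week genes with a promoter sequence (63%), against 2222 of 3364 genes tested (66.1%). Counted per single promoter, which cannot be set beside these shares, a match was present in 38.6% of all 32851 promoters.

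The change of the regime difference between 1 and 4 weeks passed for no feature, centred or with the running median subtracted, and 543 centred features had an unadjusted p under 0.05 (9.44%), against 380 with the running median subtracted. Ndufc2, a subunit of respiratory complex I, led with a difference of -0.79 at 1 week and 1.71 at 4 weeks, a change of 2.49 ± 0.52 (adjusted p = 0.505). Slco3a1 and Ube2o led the other way, with changes of -2.53 and -1.95. For Aldh3a2, a fatty aldehyde dehydrogenase, and Ifitm3 the changes of 1.67 and 2.62 rest on 4-week constant array A alone, at -1.99 and -3.21, as array B has no value for either.

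No member of any gene list passed over all durations, centred or with the running median subtracted, so lists are described by counts and medians, beside all features (59.8% positive, median 0.06 centred; 49.9% positive with the running median subtracted). Of the 12 HIF targets and pathway genes outside glycolysis, 6 had a positive difference, with a median of -0.02, and 8 with a median of 0.09 once the running median was subtracted. Pfkfb3, which drives glycolytic flux, had 0.27, Ndrg1, a stress-response gene, had -0.35, and Hif1a itself 0.20. Vhl, whose product targets HIF for destruction, had 0.69, from a 4-week constant array A at -3.27. Among 9 glycolysis genes 5 were positive (median 0.00). At 4 weeks Ldha, lactate dehydrogenase A, read -0.48 and -0.90 on intermittent arrays, against 1.01 and 0.12 on constant arrays, a difference of -1.26 (adjusted p = 0.138).

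Of 20 genes of the tricarboxylic acid cycle and pyruvate dehydrogenase, none passed. At 1, 2 and 4 weeks 5, 12 and 4 of them had a positive difference (medians -0.07, 0.12 and -0.36), against 52.1%, 58.7% and 56.4% of all features. After subtraction of the running median the 4-week count was 3 (median -0.40), against 50.9% of all features. Citrate synthase, Cs, which opens the cycle, read -0.06 and -0.09 at 1 week, 0.01 on array A at 2 weeks and -0.58 on array A at 4 weeks of intermittent hypoxia. Against this Cs read 0.09 and 0.85, 0.28 and -0.07, and 1.18 and 0.74 in constant hypoxia, and its difference over all durations was -0.72 ± 0.21 (adjusted p = 0.389). Pdhb, of the pyruvate dehydrogenase complex, had -0.43 (adjusted p = 0.393) and -0.16 with the running median subtracted, and on uncentred values both genes were positive, at 0.034 for Cs and 0.317 for Pdhb. Of 41 oxidative phosphorylation subunits 28 were positive over all durations (median 0.10), and of 21 genes of fatty acid oxidation and the peroxisome 12 (median 0.07). Ndufb6 and Ndufb11, accessory subunits of complex I, had differences of 0.69 and 0.65, which were 0.26 and 0.22 with the running median subtracted (adjusted p = 0.541 and 0.512). Aldh3a2 had 0.71 over all durations (adjusted p = 0.329), and -0.18 with the running median subtracted.

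Genes of protein synthesis and turnover gave no passing member either. Eif4h, a helper of the helicase that unwinds messenger RNA for translation, had a difference of 0.98 (adjusted p = 0.389), and 0.36 with the running median subtracted. Eif5b, which joins the ribosomal subunits, had -0.48, Psmd1, a proteasome scaffold subunit, -0.48, and the splicing-related Hnrnpu and Prpf8 -0.44 and 0.51. Of 39 translation factors and tRNA synthetases 21 were positive (median 0.01), and of 42 proteasome and ubiquitin genes 20 (median -0.00). At 4 weeks with the running median subtracted these were 11 of 39 (median -0.18) and 13 of 42 (median -0.22), against 50.9% of all features. Of 63 solute carriers 40 were positive over all durations (median 0.10), and at 4 weeks Slco3a1 and Slc25a39, a mitochondrial carrier of glutathione, passed with a lower ratio once the running median was subtracted (-2.29 and -1.11, adjusted p = 0.0162 and 0.0311).

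Antioxidant and glutathione genes numbered 22, of which 14 were positive over all durations (median 0.05). At 4 weeks Mgst1 and Mt2 passed with the running median subtracted, both with a higher ratio in intermittent hypoxia (adjusted p = 0.0311 each), while 14 of the 22 were negative and the median was -0.32. Mt2, a metal-binding protein that also scavenges radicals, read 0.72 and 1.59 on intermittent and -1.88 and -0.36 on constant arrays at 4 weeks (centred). The list of NADPH oxidases and related genes had 3 members tested, the subunits Cyba and Rac1 and the monoamine oxidase Maoa, with differences between -0.09 and -0.02. Of the 39 chaperones, 17 were positive over all durations (median -0.05) and 5 at 4 weeks with the running median subtracted (median -0.24). There Hspb1 passed with a higher and Dnajc2 with a lower ratio (-1.31, adjusted p = 0.0499), and Cryab, the other small heat-shock protein, had 1.25 (adjusted p = 0.0515).

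The immediate early and AP-1 list had 3 members tested, Klf6, Klf4 and Sgk1, with differences of 0.35, 0.61 and 0.36. The 6 renin-angiotensin and sodium genes had a median of 0.23, and of 0.08 with the running median subtracted, with Agt, angiotensinogen, at 0.40 and Agtr2, an angiotensin receptor, at -0.26. The 7 NF-kB and inflammatory genes had a median of -0.12 with 2 positive, which turned to 0.05 with 4 positive once the running median was subtracted. Centred medians were for the 25 matrix genes 0.04, for the 22 cell-cycle genes 0.04 and for the 65 cytosolic ribosomal proteins 0.05. The 9 sex-linked and androgen-dependent genes had a median of -0.37 over all durations and of -0.99 at 4 weeks, the lowest of the lists with at least 5 members tested. The 5 erythroid genes were all positive (median 0.26), 3 of 5 with the running median subtracted. At 1 week none of the 5 was positive on either scale (medians -0.32 centred and -0.14), and at 4 weeks the centred median was 0.96. Hbb-b1, an adult beta-globin gene, had 0.95, from a 4-week constant array A at -4.08 (unadjusted p = 0.0365, adjusted p = 0.425). Of cell type markers, 3 proximal tubule, 1 distal tubule, 2 collecting duct and 3 podocyte genes were tested. Lrp2, the endocytic receptor megalin of the proximal tubule, had -0.29, and -0.10 with the running median subtracted. Of 5 immune cell markers 3 were positive (median 0.20), and the macrophage complement gene C1qa, the one with an unadjusted p under 0.05, had -0.40, and -0.15 with the running median subtracted. A ratio between 2 kidneys carries no level, so whether defining markers are present cannot be read from these values, and fewer cells of a type and less RNA per cell cannot be told apart.

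**Figure D3:**
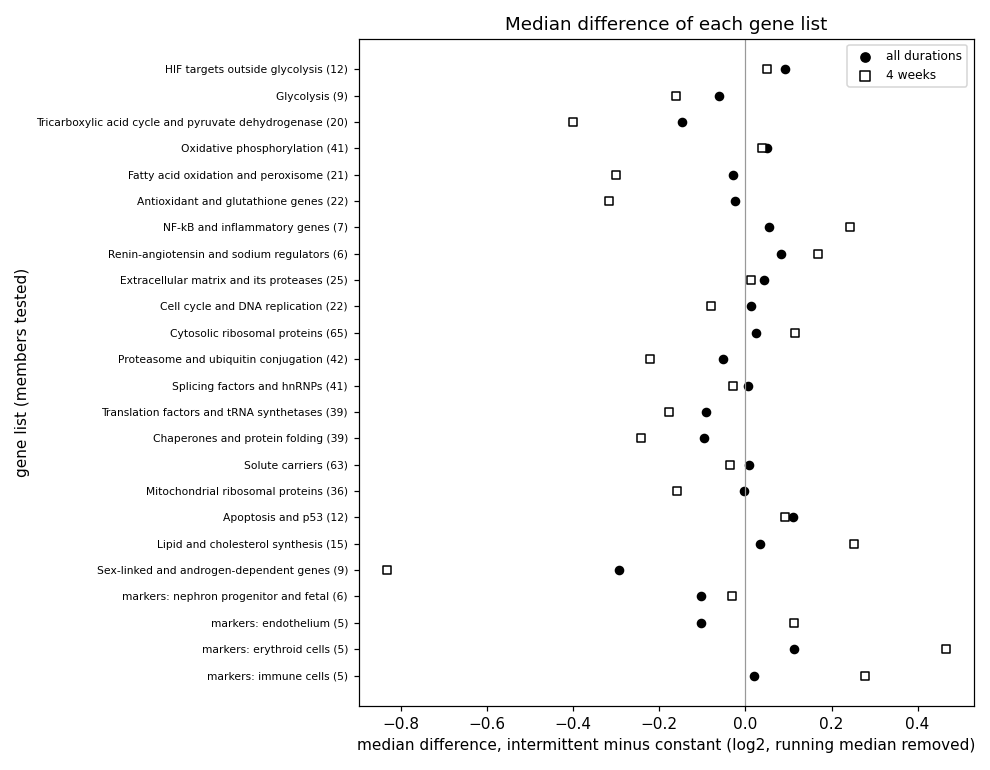
Median difference, intermittent minus constant, of the genes of each list with at least 5 members tested (rows, members in brackets) on the log2 scale with the running median subtracted (x), over all durations (filled) and at 4 weeks (open squares). These lists over all durations lie between -0.29 and 0.11, and the sex-linked and androgen-dependent genes lie lowest at 4 weeks, at -0.83.

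The width of the ratios within an array bears on whether the 2 kidneys of a regime differed more from each other. It also holds the drift along the probe numbers and measurement noise, and the regimes differ in missing values, so it does not measure the kidneys alone. The interquartile range averaged 0.48 ± 0.21 on intermittent and 0.50 ± 0.15 on constant arrays (SD, n = 6 each), with ranges of 0.31 to 0.88 and 0.32 to 0.72. The difference of -0.02 had p = 0.815 in an exact two-sided permutation test of regimes within durations, with 0.00926 the smallest p it allows. After subtraction of the running median it was 0.34 ± 0.10 on intermittent and 0.27 ± 0.06 on constant arrays (exact permutation p = 0.139, n = 6 each). With the local median subtracted, a setting chosen after seeing the data, it was 0.33 ± 0.09 and 0.24 ± 0.05 (exact permutation p = 0.0556). The spread between replicate arrays was larger in intermittent hypoxia for 58.8% of the 3397 features, with median SDs of 0.26 and 0.22, and for 66.7% with the running median subtracted. By duration the centred share was 48.6%, 72% and 40.9% at 1, 2 and 4 weeks, and 52.4%, 74.7% and 50.2% with the running median subtracted.

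**Figure D4:**
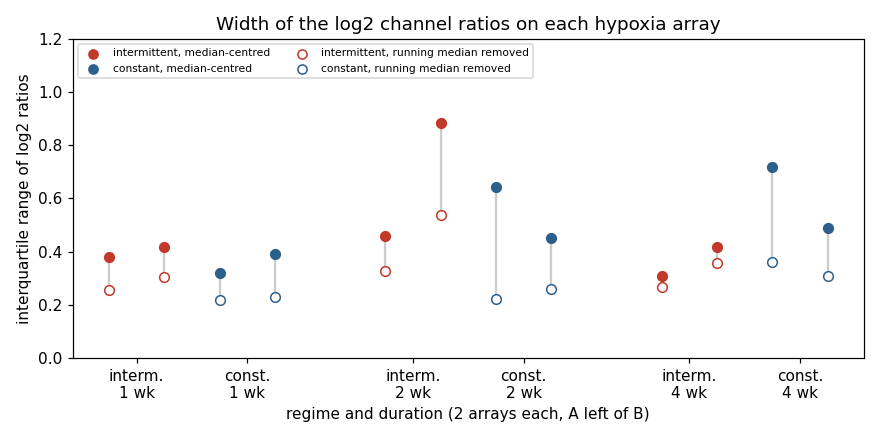
Interquartile range of the log2 ratios (y) of each hypoxia array (x), median-centred (filled) and with the running median subtracted (open), intermittent red and constant blue. Intermittent array B at 2 weeks is widest at 0.88, and constant array A at 4 weeks is at 0.72 and falls to 0.36 once the running median is subtracted.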

How the data were processed

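Kidney RNA was measured on 2-colour spotted cDNA arrays. The values are log2 channel ratios deposited by the authors, per array and probe, already processed by the authors. Background correction, normalization and filters: not given in the sources used here. Base 2 was checked: 22.7% to 77.7% of values per array were ratios of whole numbers in base 2 (tolerance 3e-09, denominators up to 600), against at most 0.2% in base e and 0.6% in base 10. The platform annotation gave a single symbol to 9604 of 16128 probes, several to 213 and none to 6311. Spots without a value stayed missing, and probes of 1 gene were averaged. Array medians over the fitted features were subtracted, and limma 3.58.1 (R 4.3.3) fitted 9 group means over 18 arrays with eBayes and Benjamini-Hochberg adjustment. A running median over 50 probes on either side uses the order of the probe numbers only. Block medians and local medians assume 24 spots a row and 21 rows a block, inferred from the values. On simulated data 81% of 100 features changed by 1 on the log2 scale and all of 100 changed by 2 were recovered over all durations. The simulated noise was independent, of the same width on every array and without drift. Unlike it, these arrays differ in width and drift along the probe numbers, so the shares check the code and are not the power of this comparison. Depth does not apply to array ratios, and 2 arrays per group limit the precision. The p-values measure the spread between arrays, each of 1 animal labelled male and 1 labelled female. Named genes were the 10 in each direction with the smallest p and the same sign at each duration, 3 in each direction per single contrast, up to 2 per list with an unadjusted p under 0.05, and up to 5 non-overlapping genes in each direction. Other list members, such as Pfkfb3, Ndrg1, Hif1a, Vhl, Ldha, Agt, Agtr2 and Cryab, were given as examples outside these rules. Members, lists and tests were chosen with earlier results of these data known. Arrays left out, other scalings, filters and tests were tried as alternatives. No paired fit was the main one: deviations of arrays of the same letter correlated with both signs.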

Additional observations from a re-analysis of the deposited data

Results flagged for a closer look

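Several values stood apart from the other arrays of their regime by Dixon's test, with 44 groups tested. By chance the test marks about 1 group in 20 where groups are not picked by their values. The genes listed here were picked by the p of their regime difference on the same arrays, so that rate does not apply to them. Intermittent array B at 2 weeks did so for its interquartile range (0.88) and for Arrb2 (2.32), Slc44a2 (-1.55), Ifi27 (-1.67) and Neurl4 (-1.05), and intermittent array A at 2 weeks for Irgq (-1.70). Constant array A at 4 weeks did so for Dynlt1b (-3.64) and Fbp2 (-3.76), intermittent array B at 4 weeks for Fbp2 (0.65), and constant array B at 1 week for Tubb6 (-0.25).

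For 3 of the genes named by the smallest p of the change over time, the arrays separated in opposite directions at 1 and 4 weeks. Both intermittent arrays lay on one side of both constant arrays at 1 week and on the other side at 4 weeks. As these genes were picked by that change, the pattern is no separate result, and its share over all features was not counted. The change from 1 to 4 weeks was 2.49 for Ndufc2, -1.95 for Ube2o and -2.53 for Slco3a1, and the limma test of this change did not pass for any of them (adjusted p = 0.505 each).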

How the results depend on the processing

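Counts of passing features moved with most settings, and the cause was not tested. They are given for all durations, 1, 2 and 4 weeks, against 2, 0, 2 and 0 median-centred. As deposited, without centring, the counts were 5386, 4867, 8 and 4574, and 694 features did not overlap. Scaled to a common median absolute deviation they were 1, 2, 0 and 18, after quantile normalization 1, 2, 1 and 5, and with local medians subtracted 1, 3, 5 and 27. With the running median subtracted they were 3, 3, 5 and 47 and 19 features did not overlap, and with block medians subtracted 3, 1, 8 and 15. With the 12 hypoxia arrays alone, 0 features passed over all durations, 0 at 2 weeks and 2 at 4 weeks, and with at least 1 value in each hypoxia group 0, 7 and 1. Over all durations and at 2 weeks, features measured on all 12 arrays gave 0 and 0, limma with trend and robust options 1 and 13, the unmoderated test 0 and 0, and array weights 1 and 0, with 2 at 1 week. Leaving out the 2 arrays of contradictory labels gave 1 and 545, and leaving out the widest array of each regime 4 and 8. Each probe on its own gave 4 at 2 weeks.

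Several settings concern the 4-week arrays and were chosen after seeing the data, as were the local medians and the removal of the widest arrays. With the sign of intermittent array B turned the counts were 0, 0, 0 and 5, and with the running median subtracted as well 0, 1, 1 and 0. With the running median subtracted and that array left out they were 1, 1, 5 and 0, with constant array A left out 1, 2 and 0 over all durations, at 1 and at 4 weeks, and with both left out 0 over all durations and 1 at 1 and at 4 weeks. Leaving out 1 array in turn gave 0 to 680 over all durations, 0 at 1 week, 0 to 388 at 2 weeks, 0 to 894 at 4 weeks and 0 to 668 for the change over time. The difference in interquartile range then lay between -0.106 and 0.0186, and it was 0.0749 with running and 0.0832 with local medians subtracted. The share of features with the larger spread in intermittent hypoxia was 53.2% after scaling and 66.7% and 67.7% with running and local medians subtracted.

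Deviations of arrays of the same letter, A or B, correlated between -0.29 and 0.44 over 15 pairs. These values do not settle whether the letters pair the arrays. With the letters as a replicate block 0 features passed over all durations and 0 at 2 weeks.

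Uncentred values turned the sign of 28 results, all negative when centred. Over all durations they were Slc44a2 (0.025), Etf1 (0.19), Dnajc2 (0.034), Pdia6 (0.228), Ifi27 (0.116), Pacsin2 (0.164), Cnnm1 (0.261), Fundc2 (0.278), Neurl4 (0.208), Cs (0.034), Pdhb (0.317), Psmd1 (0.263), Hnrnpu (0.30), Eif5b (0.241), Lrp2 (0.451), C1qa (0.348), Nfia (0.427), Pnpt1 (0.351) and Eif4enif1 (0.479). At 1 week they were Ptgr2 (0.353), Chmp5 (0.132) and Wwtr1 (0.294), and at 4 weeks Fkbp5 (0.068), Lap3 (0.058), Ptpa (0.475), Neu1 (0.038), Acot9 (0.403) and Ptgr2 (0.272). Aldh3a2 turned negative with local (-0.094 over all durations, -0.412 for the change), running (-0.183, -0.472) and block medians (-0.054, -0.233) subtracted, and with running medians and intermittent array B at 4 weeks left out (-0.166, -0.42) or turned (-0.114, -0.262). Prpf8 was -0.008 with block medians subtracted. Pdhb was 0.033 with the running median subtracted and that array turned, and 0.007 with it and constant array A left out. Turning the array gave Lin54 -0.118 over all durations (-0.353 with the running median subtracted), and at 4 weeks Rest -0.11, Plpp5 -0.09, Lin54 -1.049, Ces1f 0.539 and Brms1 -0.179. With the running median subtracted too, Dclk3 was -0.167, Lin54 -1.307 and Eif2s3y 0.017 at 4 weeks. Signal over background is not given with these ratios, so its limit on dim spots cannot be stated.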
